A study of Mus musculus with 6 samples.

Results

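Excitatory neuron differentiation factors were followed in cultures of mouse cerebral cortex exposed to terahertz radiation. The 8 genes, Neurog2, Eomes, Neurod1, Neurod2, Neurod6, Emx1, Mef2c and Bcl11a, were taken by their symbol on the array, where 16 probes of 56595 carry one of these names. Of the 8 genes, 7 passed the filter on dim probes, with 14 of their probes, among 26157 genes and 40552 probes that passed it in all. Eomes did not pass. Bcl11a has 5 probes, Mef2c 4, Eomes 2 and each of the other genes 1.

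The cultures came from cortices of C57/B6 mouse embryos at embryonic day 16 and grew in Neurobasal medium supplemented with B27 plus. The 3 irradiated cultures received radiation at 3.1 THz, a band between microwaves and infrared light, in 1 daily session of 3 hours from day 5 to day 9 in vitro. The 3 control cultures are labelled only as controls, and a sham exposure is not described. RNA of all 6 was taken at day 12 in vitro. From each culture 0.2 µg was labelled with Cy3 and read on a 1-colour Agilent array. Such cultures are mixtures of neurons and glia taken from whole cortex, so that fewer cells of a type and less RNA per cell cannot be told apart in these values. The labels do not say whether the 3 cultures of a group came from separate dissections, so the p-values reflect only how far these samples differ, a spread that may be technical.

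In the developing cortex, the basic helix-loop-helix (bHLH) factor Neurog2 starts excitatory neuron differentiation in dorsal progenitors, Eomes (also called Tbr2) marks the intermediate progenitors that follow, and the NeuroD factors act in new and maturing neurons. bHLH factors of this kind pair with E proteins and bind short DNA elements called E-boxes, and Id and Hes factors oppose them. Emx1 patterns the dorsal telencephalon, the MADS-box factor Mef2c controls neuronal survival and synapse number in response to activity, and the zinc-finger factor Bcl11a (also called Ctip1) shapes the identity of projection neurons.

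Levels are given as log2 processed signal minus the 75th percentile of the array, and differences as irradiated minus control on that scale. Probes differ in how well they bind, so a level at 1 probe against another does not tell which RNA is more abundant. The 75th percentile itself lay between 320 and 892 intensity units and was lowest on control 1, and 63.3% to 73.5% of probes were called well above background, again fewest on control 1. Control 1 also stood apart on the first principal component, which held 54.5% of the variation, at -114.6 against -3.91 to 47.6 for the other arrays. Of 62 marker genes of the cell types that such a culture could hold, 60 were measured on these arrays, and those of excitatory neurons, inhibitory neurons, astrocytes, oligodendrocyte lineage and microglia were all well above background on all 6 arrays. The endothelial markers Cdh5 and Cldn5 did not pass the filter.

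No member passed the test for a difference with irradiation. The limma test with Benjamini-Hochberg adjustment over all 26157 genes called 0 members and 0 genes (0% of all genes), with a smallest adjusted p of 0.504, and 2394 genes (9.15%), none of them a member, had an unadjusted p under 0.05. The differences of the 7 measured members lay between -0.34 and 0.18. Of these, 5 were below 0, where 65.9% of all genes were. The median was -0.20 over the members and -0.13 over all genes. With quantile normalisation, 4 of the 7 were below 0, with a median of -0.0018 against -0.05 over all genes. The members' median was 0.14 without irradiated 1 and -0.38 without control 1. In none of the 7 did the irradiated values lie all above or all below the controls, a separation that 16% of all genes showed (3.85% all above and 12.2% all below). Between replicate numbers, 4 of the 7 had an unadjusted p under 0.05 (15.9% of all genes), and none passed adjustment.

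**Figure D1:**
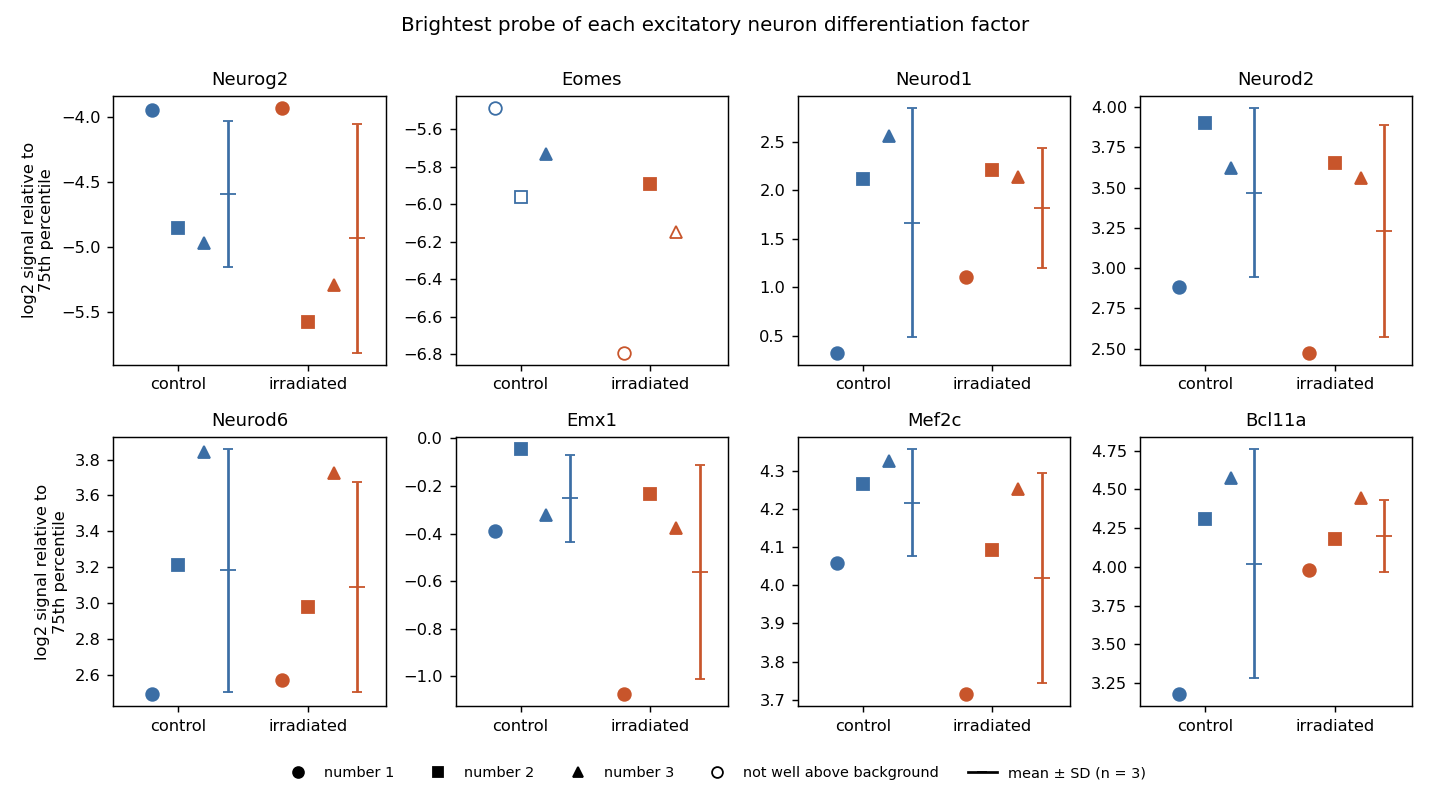
Level of each differentiation factor on each array (log2 relative to the array's 75th percentile), with control arrays and irradiated arrays side by side, the replicate number given by the shape of the point, and bars for the mean and SD of a group (n = 3; none for Eomes). Filled points are well above background and open points are not, and each panel has its own scale. The brightest probe of each gene is shown. At these probes the groups overlap in the 7 measured genes, and in 6 of them both arrays numbered 1 lie below the other 4.

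Neurog2, which starts the program, was dim in these cultures but well above background. Its probe, at chr3:127337805-127337864 on mouse build mm9 per the array files, lay at -3.95, -4.85 and -4.97 on control arrays 1 to 3 and at -3.93, -5.57 and -5.29 on irradiated arrays 1 to 3. Both arrays numbered 1 were the highest of their group, and the groups overlapped. The difference was -0.34 (SE 0.48, 95% interval -1.47 to 0.79, adjusted p = 0.826). It was -0.019 without control 1, -0.021 without irradiated 2, -0.84 without irradiated 1 and -0.072 with normexp background correction and quantile normalisation.

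Eomes had no usable level in most samples. One probe lay at -5.49, -5.96 and -5.73 in controls and at -6.79, -5.89 and -6.15 in irradiated cultures, and was well above background on control 3 and irradiated 2 alone. The other probe, whose target spans 662 bases of genome and so crosses at least 1 splice junction, was not well above background on any of the 6 arrays. No fold is given for either. These probes do not show that Eomes RNA was absent.

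Neurod1, the NeuroD gene expressed as neurons are born (probe at chr2:79292819-79292878, mm9), lay at 0.33, 2.12 and 2.56 in controls and at 1.11, 2.21 and 2.14 in irradiated cultures. Both arrays numbered 1 were low, and control 1 was the lowest of all. The group difference was 0.15 (SE 0.60, 95% interval -1.26 to 1.56, adjusted p = 0.955), which is well inside the control SD of 1.18 (n = 3). It turned to -0.52 without control 1, to -0.044 without irradiated 2 and to -0.012 without irradiated 3.

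Neurod2, which acts in differentiating and synapse-forming cortical neurons (probe at chr11:98187943-98188002, mm9), lay at 2.88, 3.90 and 3.62 in controls and at 2.48, 3.66 and 3.56 in irradiated cultures. Arrays numbered 1 were again the lowest of each group, and the groups overlapped. Its difference was -0.24 (SE 0.40, 95% interval -1.18 to 0.71, adjusted p = 0.862). It was negative in each of the 3 same-numbered pairs, at -0.41, -0.25 and -0.06, but became 0.14 when irradiated 1 was left out.

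Neurod6, a postmitotic relative of Neurod2 that serves as a marker of cortical projection neurons (probe at chr6:55628006-55628065, mm9), lay at 2.49, 3.21 and 3.84 in controls and at 2.57, 2.98 and 3.72 in irradiated cultures. The same number gave nearly the same level in both groups, lowest for number 1 and highest for number 3. The difference was -0.09 (SE 0.42, 95% interval -1.08 to 0.90, adjusted p = 0.962), and quantile normalisation turned it to 0.056.

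Emx1, the homeobox gene of dorsal progenitors and their excitatory progeny (probe at chr6:85154062-85154121, mm9), lay at -0.39, -0.05 and -0.32 in controls and at -1.07, -0.23 and -0.38 in irradiated cultures. Irradiated 1 was the low sample, and the other 5 arrays lay close together. Its difference of -0.31 (SE 0.27, 95% interval -0.95 to 0.33, adjusted p = 0.685) shrank to -0.05 without irradiated 1.

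The interval of the difference shows how large a change these 6 arrays leave possible. Without the replicate block, for Emx1 and for the brightest Mef2c probe the 95% limits stayed within 1 log2 unit of 0, that is, within a 2-fold change. For Neurod1, Neurod2, Neurod6, Neurog2 and the brightest Bcl11a probe at least 1 limit passed it, and a 2-fold change in at least 1 direction was not outside the interval. With the number as a block the intervals at the brightest probes were narrower. All 7 lay within 1 log2 unit of 0, the lowest limit being -0.88 for Neurog2 and the highest 0.86 for Neurod1. The labels do not state this pairing, and it was adopted from these same values, so the narrower limits do not exclude a 2-fold change. They also do not cover the dimmer probes of Mef2c and Bcl11a. Neurod2, Emx1 and Mef2c were below 0 in all 3 same-numbered pairs. The share of all genes that did so was not counted, and 65.9% of all genes had a group difference below 0.

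The promoters of the 3 NeuroD genes and of Neurog2 are shown because these genes varied most between replicate numbers. They are the 250 bases before each gene's start in RefSeq on build GRCm38.p6, 5′ to 3′ on the gene's strand, with each E-box, CANNTG, in capitals. All 8 genes matched the RefSeq table, with 10 windows because Mef2c has 3 starts. CANNTG reads as CANNTG on the other strand too, so 1 search covers both.

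Neurod1, chr2:79456637-79456886, minus strand: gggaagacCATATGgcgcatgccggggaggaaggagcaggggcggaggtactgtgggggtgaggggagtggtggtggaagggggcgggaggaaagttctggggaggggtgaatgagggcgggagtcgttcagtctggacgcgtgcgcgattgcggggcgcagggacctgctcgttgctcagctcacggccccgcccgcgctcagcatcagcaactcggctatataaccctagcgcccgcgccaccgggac
Neurod2, chr11:98329646-98329895, minus strand: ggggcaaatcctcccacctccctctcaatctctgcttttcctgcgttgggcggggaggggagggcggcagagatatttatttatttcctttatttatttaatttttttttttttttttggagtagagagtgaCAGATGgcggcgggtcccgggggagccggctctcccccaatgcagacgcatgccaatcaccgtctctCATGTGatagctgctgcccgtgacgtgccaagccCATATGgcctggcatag
Neurod6, chr6:55681264-55681513, minus strand: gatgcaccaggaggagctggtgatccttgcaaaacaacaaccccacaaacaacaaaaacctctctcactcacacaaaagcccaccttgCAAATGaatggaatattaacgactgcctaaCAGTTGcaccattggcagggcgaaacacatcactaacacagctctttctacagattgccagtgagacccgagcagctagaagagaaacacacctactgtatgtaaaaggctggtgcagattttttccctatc
Neurog2, chr3:127632886-127633135, plus strand: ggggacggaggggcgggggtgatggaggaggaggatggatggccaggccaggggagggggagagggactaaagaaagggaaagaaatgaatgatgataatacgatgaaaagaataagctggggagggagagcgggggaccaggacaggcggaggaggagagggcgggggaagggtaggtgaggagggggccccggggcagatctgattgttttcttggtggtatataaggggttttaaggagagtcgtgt

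Neurod2 holds 3 E-boxes, which start 118, 51 and 17 bases before the start site. Neurod6 holds 2, at 162 and 132 bases, Neurod1 holds 1, at 242 bases, and the Neurog2 window holds 0. Over 32851 promoter windows of this length, 66.22% hold at least 1 CANNTG and 12.21% hold at least 3. Of the windows not printed, those of Emx1 and Bcl11a hold 1 E-box each, that of Eomes 0, and the 3 of Mef2c 2, 0 and 1. CATATG, found in windows of Neurod1, Neurod2 and Mef2c, occurs in 3.464% of windows. CAGATG, found in windows of Neurod2 and Mef2c, occurs in 14.44% on either strand. CAGCTG, whose share was also counted, was found in no member window and occurs in 13.0% on either strand. These matches describe the letters of the windows and are not binding sites measured here.

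For Mef2c, the brightest probe and the other 3 differed in what they showed. The brightest probe, at chr13:83803888-83803947 on mm9, lay at 4.06, 4.26 and 4.33 in controls and at 3.72, 4.09 and 4.25 in irradiated cultures, groups that overlapped within a narrow range. Its difference was -0.20 (SE 0.22, 95% interval -0.71 to 0.32, adjusted p = 0.763). It was -0.0018 with quantile normalisation and -0.045 without irradiated 1. Each of the other 3 probes was higher in every irradiated culture than in any control.

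The first of these, A_55_P2155620, carries a RefSeq accession and targets chr13:83772788-83775025 on build mm9. Its 60 bases cover 2238 bases of genome, so it crosses at least 1 splice junction, and it is shown because it reads spliced Mef2c RNA (no part is capitalised).

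A_55_P2155620: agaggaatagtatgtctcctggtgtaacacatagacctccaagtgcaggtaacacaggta

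This probe lay at -1.83, -1.03 and -1.03 in controls and at -0.70, -0.32 and -0.86 in irradiated cultures. The groups were separate by a small margin, with control 1 low. The difference was 0.67 (SE 0.29, unadjusted p = 0.0547, limma, adjusted p over 40552 probes = 0.519), and 0.40 without control 1.

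The other 2 probes, A_55_P2730921 at chr13:83665698-83665757 and A_65_P11889 at chr13:83668174-83668233 on mm9, are listed against an Ensembl transcript and no RefSeq one. A_55_P2730921 lay at -3.43, -1.73 and -1.84 in controls and at -1.16, -0.98 and -1.41 in irradiated cultures. A_65_P11889 lay at -5.47, -4.05 and -4.13 in controls and at -3.08, -2.96 and -3.68 in irradiated cultures, and was not well above background on control 1. In both, control 1 was far below the other controls, but the groups stayed separate among the remaining 5 arrays.

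The fitted differences were 1.15 for A_55_P2730921 (SE 0.45, 2.22-fold, unadjusted p = 0.0369) and 1.31 for A_65_P11889 (SE 0.42, unadjusted p = 0.0155), the latter with a value on control 1 that was not well above background. Neither passed adjustment over all probes in limma (adjusted p = 0.519 for both). Without control 1 they were 0.60 and 0.85. Within numbers 1, 2 and 3, irradiated exceeded control by 2.27, 0.76 and 0.43 at the first and by 2.39, 1.09 and 0.45 at the second. With normexp background correction the difference at A_65_P11889, the dimmest Mef2c probe, was 0.13 and that at A_55_P2730921 was 0.64.

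**Figure D2:**
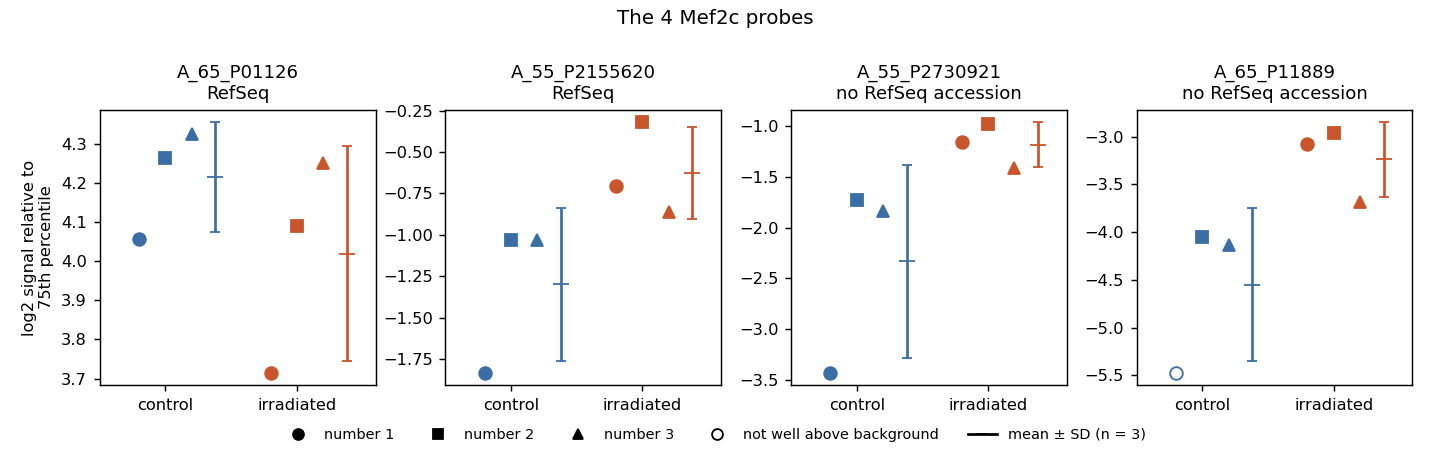
Level of each of the 4 Mef2c probes on each array (log2 relative to the array's 75th percentile), 1 panel a probe, with its own scale, the replicate number given by the shape of the point and bars for the mean and SD of a group (n = 3). Open points are not well above background. The brightest probe overlaps between groups, and the other 3 lie higher in all 3 irradiated cultures.

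The dimmer Mef2c probes were also set against the brightest within each array, which cancels the scaling by 1 value per array. It does not cancel effects of array brightness that differ between dim and bright probes. The 75th percentiles were 320, 465 and 707 on controls 1 to 3 and 841, 892 and 635 on irradiated 1 to 3. The part of array brightness in this contrast was not tested. The mean of the 3 dimmer probes minus the brightest was -7.64, -6.54 and -6.66 in controls and -5.36, -5.51 and -6.24 in irradiated cultures. Every irradiated value lay above every control value, with a difference of 1.24, and of 0.89 without control 1, where 1 of the 3 probes was not well above background. This contrast was chosen after the probe values had been seen, so it is given with no test. Whether the probes with no RefSeq accession read spliced Mef2c RNA, an intron or an antisense transcript was not examined, since no annotation of build mm9 was used.

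For Bcl11a, 1 of 5 probes separated the groups, and the signs were mixed. Its brightest probe, at chr11:24073114-24073173 on mm9, lay at 3.18, 4.31 and 4.57 in controls and at 3.98, 4.18 and 4.44 in irradiated cultures. Control 1 was low and the other arrays overlapped, with a difference of 0.18 (SE 0.38, 95% interval -0.70 to 1.07, adjusted p = 0.894) that became -0.24 without control 1.

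A_52_P82704, at chr11:23989728-23989787 on mm9 and with no RefSeq accession, lay at -1.77, 0.69 and -0.23 in controls and at 0.80, 0.77 and 1.02 in irradiated cultures. All 3 irradiated values were above the controls, though irradiated 2 exceeded control 2 by only 0.08. The difference was 1.30 (SE 0.56, unadjusted p = 0.0512, adjusted p = 0.519, limma), and 0.64 without control 1. Whether this probe reads spliced Bcl11a RNA, an intron or an antisense transcript was not examined. The groups overlapped at the other 3 Bcl11a probes, with differences of -0.25, 0.67 and -0.48 and unadjusted p between 0.101 and 0.478 (limma). The last of these, A_55_P1958270, also has no RefSeq accession and was not well above background on control 1. The mean of the 4 dimmer probes minus the brightest differed by 0.13 between the groups.

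**Figure D3:**
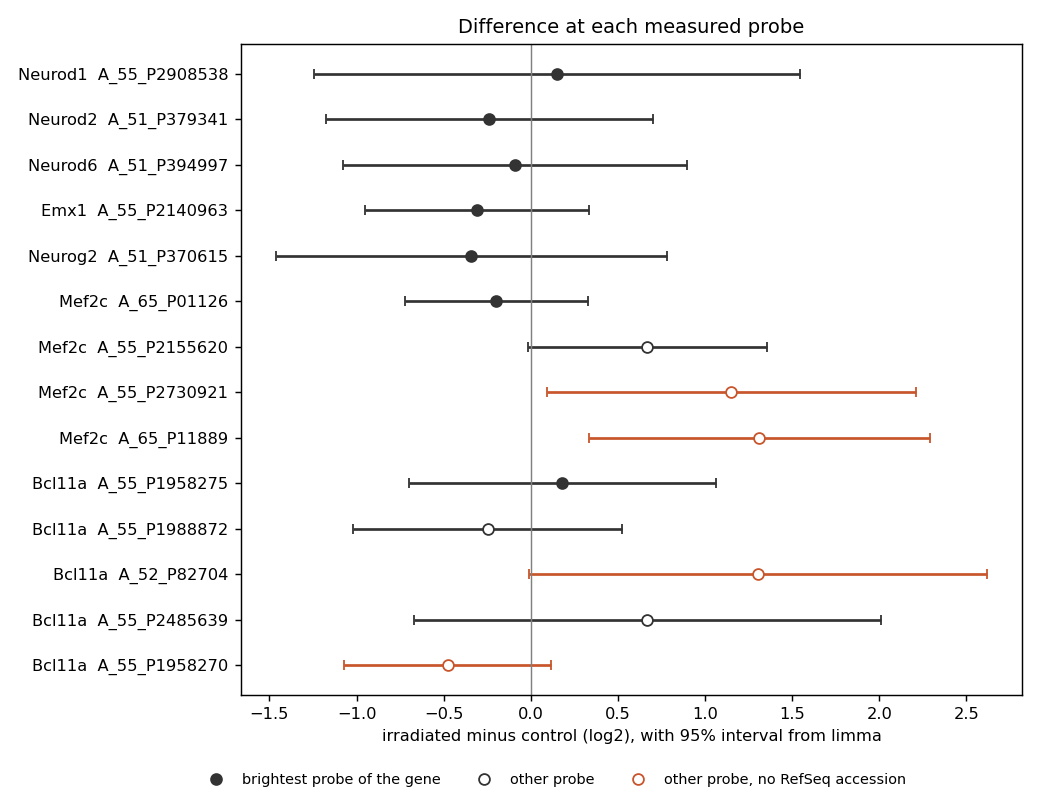
Difference between irradiated and control cultures at each of the 14 probes that passed the filter (log2, points), with the 95% interval from limma (bars). Filled points are the brightest probe of each gene, open points the other probes, and orange marks probes with no RefSeq accession. The highest values are those of A_65_P11889 and A_52_P82704.

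Over all 14 member probes, 4 had every irradiated value above every control, where 5.76% of all probes did, and 0 had every value below, where 9.77% did. With limma, 2 of the 14 had an unadjusted p under 0.05 and were higher (4.02% of all probes), 0 were lower at that p (5.01%) and 0 passed adjustment (0%). With the replicate number as a block, 4 of the 14 were higher at an unadjusted p under 0.05 (4.44% of all probes), none was lower, and again 0 passed adjustment. With normexp, A_55_P1958270 of Bcl11a was lower at an unadjusted p of 0.020 (limma, adjusted p = 0.295). This dim probe was not well above background on control 1, and its unadjusted p was 0.261 with normexp and quantile normalisation. In the first run A_52_P82704 (unadjusted p = 0.014, limma), A_55_P2730921 (0.019) and A_55_P2155620 (0.0495) were higher. Over all genes, 4279 were lower and 293 higher at that p in that run. The class of probe moves with the count of separated probes. Among probes with no RefSeq accession, 12.6% lay all above the controls, against 2.7% of those with one, and the shares were 13.7% and 4.38% without control 1. Of the 4 separated member probes, 3 have no RefSeq accession. The probes with no RefSeq accession were also the dimmer class, with a median level of -3.15 against -0.73. Control 1 had the lowest 75th percentile of signal and was the lowest of the 6 arrays at all 4 separated probes. The highest 75th percentiles were those of irradiated 1 and 2, at 841 and 892. What part brightness, probe class or control 1 had in these differences was not tested.

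In the limma model that holds group and number, 4 of 7 members had an unadjusted p under 0.05 for number (15.9% of all genes) and 0 of 7 for radiation (9% of all genes). At their brightest probes, Neurod1, Neurod2, Neurod6, Emx1, Mef2c and Bcl11a were lower on both arrays numbered 1 than on any of the other 4. These are 6 of 7 members, where 18.4% of all genes were lower, though Emx1 and Mef2c by a small margin. With quantile normalisation Emx1 on control 1 (8.880) lay above irradiated 3 (8.877). At each dimmer Mef2c probe irradiated 1 lay above all controls. Of the dimmer Bcl11a probes, A_55_P1988872 and A_55_P2485639 kept the order, and A_52_P82704 and A_55_P1958270 did not. Neurog2 was higher there, as were 13.1% of all genes. Averaged over groups, number 1 lay below numbers 2 and 3 by 2.91-fold for Neurod1, 2.01-fold for Neurod2 and 1.88-fold for Neurod6, and above them by 2.35-fold for Neurog2.

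A moderated F test on the number, in a limma model that holds group and number, gave an unadjusted p of 0.00901 for Neurod1, 0.00752 for Neurod2, 0.00537 for Neurod6 and 0.00762 for Neurog2. The adjusted p was 0.149, 0.137, 0.119 and 0.138, so none passed. In all, 4 of 7 members had an unadjusted p under 0.05, where 15.9% of all genes did, and 162 genes passed adjustment (0.619%). The other members gave 0.145 for Emx1, 0.226 for Mef2c and 0.0708 for Bcl11a. With normexp and the 75th percentile, Neurog2 no longer fell under 0.05 (unadjusted p = 0.130, limma) and Bcl11a did (unadjusted p = 0.0359). With both arrays numbered 1 left out, the Neurod1 difference between groups was -0.16 and that of Bcl11a -0.13, against 0.15 and 0.18 over all arrays. With the number as a block, a pairing that the labels do not state, 0 genes and no member passed in limma.

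Markers of some other cell types moved with the number. All 7 microglial markers were higher on both arrays numbered 1 than on the other 4 (13.1% of all genes). So were 6 of 7 astrocyte, 5 of 5 dividing-cell and 3 of 4 endothelial and mural markers. Other lists were mixed. Of 8 oligodendrocyte lineage markers, 3 were higher and 2 lower (18.4% of all genes were lower). Of 6 radial glia and progenitor markers, 2 were higher and 1 lower. Of 8 inhibitory neuron and 5 fibroblast and meninges markers, 1 in each list was higher and 1 lower. The summed microglial signal (log2, relative to the 75th percentile) ranged from 1.16 to 3.65 in controls and from 1.09 to 4.15 in irradiated cultures, with the highest value of each group on number 1. The summed astrocyte signal ranged from 6.17 to 7.48 and from 6.06 to 7.30, and the dividing-cell signal from 1.47 to 2.93 and from 1.55 to 2.95, again highest on number 1. Of the general neuronal markers and of the excitatory neuron markers, 1 of 5 in each list was lower on both arrays numbered 1 than on the other 4, and 1 of 5 excitatory markers was higher. Among 12 further postmitotic excitatory factors, 5 were lower on both arrays numbered 1, 2 were higher, and 5 differed by number at an unadjusted p under 0.05 (15.9% of all genes). The low ones include Bhlhe22 and Cux2, and nothing here shows that the pattern is particular to the members. The part of cell makeup in the members' values was not tested.

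**Figure D4:**
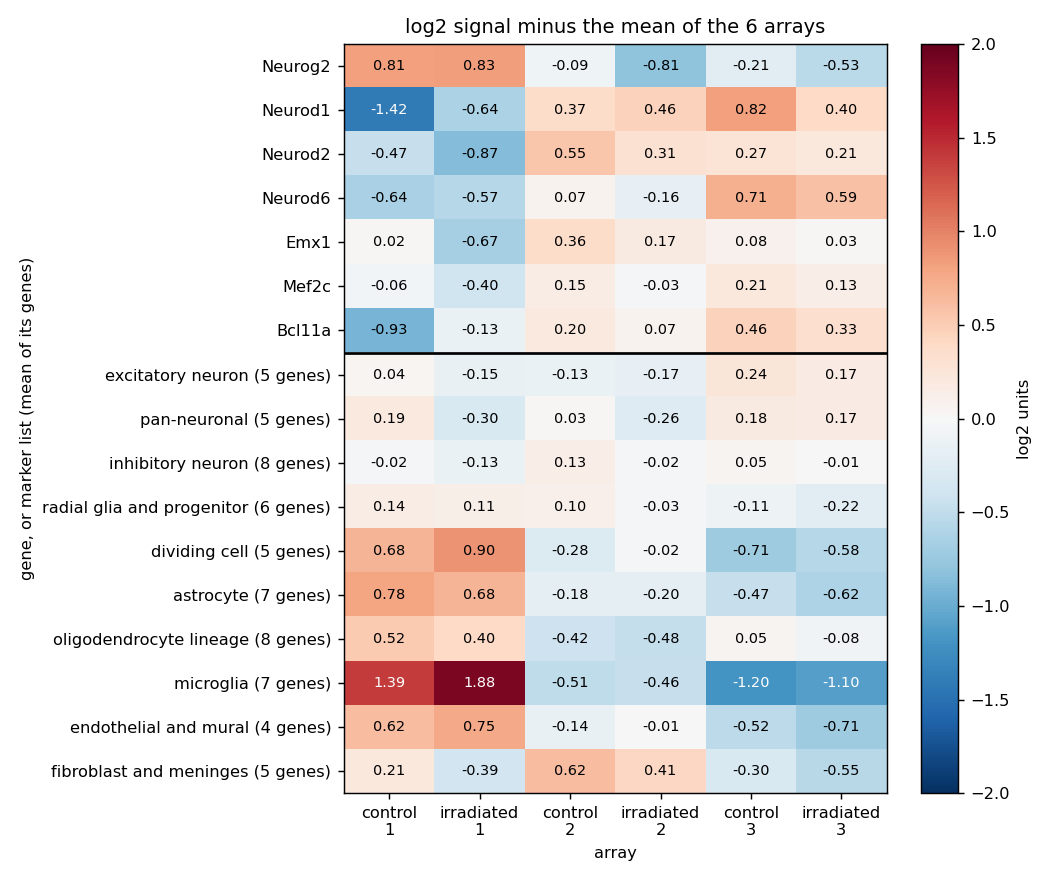
Level of each of the 7 measured differentiation factors (upper rows) and mean level of each marker list (lower rows) on each array, minus the mean of the 6 arrays (log2, colour and printed value), with same-numbered arrays side by side. Microglial markers stand at 1.39 and 1.88 on the arrays numbered 1, where the 7 factors average -0.38 and -0.35.

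For each member the genes with the most similar course over the 6 arrays were taken by the root mean square distance of centred values (log2) among 14972 named genes. The nearest to Neurod1 were Klf8 (0.10), Thsd7b (0.13) and Bhlhe22 (0.13), and Bhlhe22, a bHLH factor of postmitotic excitatory neurons, lay at 0.84, 2.61 and 2.76 in controls and at 1.37, 2.77 and 2.52 in irradiated cultures. It was thus low on both arrays numbered 1, as Neurod1 was. Neurod2 had Rasip1 (0.05), Cav3 and Mccc1os nearest, and Neurod6 had Inpp4b (0.07), Magel2 and Camta1. Emx1 had Haus8 (0.06), Iglon5 and Otub2, Neurog2 had Serpinb6b (0.07), Erbb3 and Oasl1, and Bcl11a had Setd7 (0.03), Dkc1 and Gse1. Mef2c, which at its brightest probe varied least among the members, had Foxn3 (0.03), Abca3 (0.03) and its own relative Mef2a (0.04) nearest. With 6 arrays and this many candidates some gene is always near, and these distances are a description.

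Partners, inhibitors and targets of the members likewise did not pass the test. Of 58 such genes, 57 were measured (not Neurod4), and limma called 0 of them at an adjusted p under 0.05 (0% of all genes) and 0 at an unadjusted p under 0.05 (9.15% of all genes). Differences below 0 were found in 43 of 57 (65.9% of all genes), with a median of -0.11 against -0.13 over all genes.

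Among 11 proneural and neurogenic bHLH partners and targets the smallest unadjusted p belonged to Nhlh1, a bHLH gene of newborn neurons. It lay at 1.38, 1.12 and 0.86 in controls and at 0.60, 0.58 and 0.82 in irradiated cultures, with a difference of -0.45 (unadjusted p = 0.073, adjusted p = 0.504, limma). Its groups were separate, with all irradiated values below the controls, as in 12.2% of all genes. Neurog1, the relative of Neurog2, differed by -0.62 (unadjusted p = 0.109), and its groups overlapped. Among early progenitor regulators, Lhx2 differed by -0.13 and Emx2, the relative of Emx1, by -0.15.

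The E proteins, which pair with NeuroD and Neurog factors, did not share a direction. Tcf12 differed by 0.31 and Tcf3 by -0.18, and the 5 Tcf12 probes ranged from -0.15 to 0.79. Of the 7 bHLH inhibitors, 4 were below 0, with a median of -0.01, and Id3 (0.24) and Id4 (0.09) had the smallest p. The 12 other postmitotic excitatory factors had a median of -0.13, with Sox5 at -0.27 and Cux1 at -0.19. The 6 Sox5 probes ranged from -0.27 to 1.21 and the 6 Cux1 probes from -0.35 to 0.86.

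Of 7 MEF2 family members and class IIa histone deacetylases, the repressors that bind MEF2 proteins, 6 were below 0 (65.9% of all genes). The median of the 7 was -0.28, against -0.13 over all genes. Mef2b (-0.47, unadjusted p = 0.108, limma) and Hdac5 (-0.37, unadjusted p = 0.114) led by p. Mef2d and Hdac7 (-0.27), 2 of the 7, had all irradiated values below the controls, as did 12.2% of all genes. Mef2d lay at 4.37, 4.16 and 4.08 in controls and at 3.74, 3.95 and 3.98 in irradiated cultures, a difference of -0.31 (unadjusted p = 0.150). As for Mef2c, the value depended on the probe: the 4 Hdac4 probes ranged from -0.28 to 1.56, the 6 Hdac9 probes from -0.43 to 1.18 and the 3 Mef2d probes from -0.31 to 0.29. The 3 Mef2b probes ranged from -0.62 to 0.12.

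Known targets of MEF2 and BCL11A did not pass either. Arc, an activity-induced synaptic gene, differed by -0.38 and Homer1 by -0.11 (its 4 probes ranged from -0.11 to 0.36). Nr4a1, an activity-induced nuclear receptor, lay at 4.27, 1.46 and 2.79 in controls and at 3.82, 1.44 and 2.74 in irradiated cultures, high on number 1 and low on number 2 in both groups. It was the only listed partner or target for which the number passed adjustment (adjusted p = 0.047, limma; 0.619% of all genes passed), out of 13 of 57 at an unadjusted p under 0.05 (15.9% of all genes). Sema3c is a guidance cue repressed by BCL11A in some neurons. At its brightest probe it lay at 1.48 and 1.29 on number 1, against 2.47 to 2.80 on the other arrays. The brightest Bcl11a probe was also low on number 1. The differences of the 2 Sema3c probes ranged from -0.22 to 1.19. Of 6 glutamatergic identity genes, 3 were below 0 and 3 above, with a median of -0.09. Camk2a differed by -0.46 (unadjusted p = 0.143, limma) and Nrgn by -0.38, and the vesicular glutamate transporter Slc17a7 by 0.15. The 3 Camk2a probes ranged from -0.46 to 0.65.

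**Figure D5:**
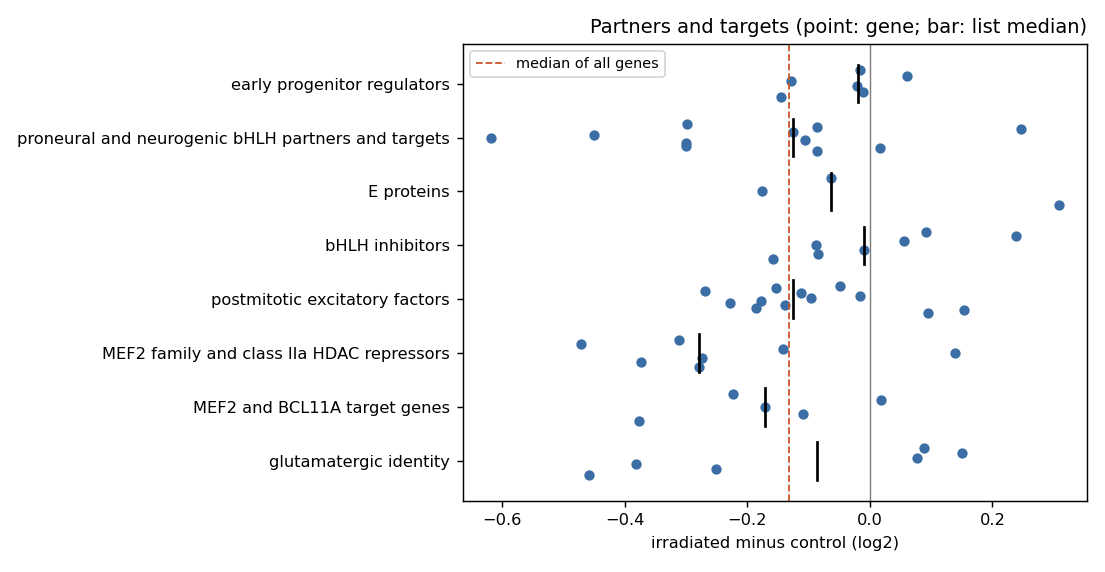
Difference between irradiated and control cultures (log2) for each measured partner, inhibitor or target gene, 1 point a gene, by list. The black bar is the median of a list and the dashed line the median of all genes, -0.13. The list of MEF2 proteins and their repressors has the lowest median, -0.28.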

How the data were processed

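The authors deposited spot intensity values, for which the submitters' processing notes name Agilent Feature Extraction 10.7.1.1. Per the file headers, this processed signal is linear and background-subtracted within an array. A second table that the authors deposited holds log2 values, whose column medians were equal (5.90) and which was used as an alternative. Spots marked as outliers were left out, spots of a probe averaged in log2, and the array's 75th percentile over non-control probes subtracted. Of 56605 probes, 10 had no unmarked spot on some array. A probe was kept if well above background on at least 3 of 6 arrays, and the brightest kept probe stood for its gene.

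Irradiated and control arrays were set against each other by lmFit and eBayes of limma 3.58.1 (R 4.3.3) without covariates, with calls at a Benjamini-Hochberg adjusted p under 0.05. The scripts were tested on simulated data. Deviations from the group means of same-numbered samples correlated at 0.53, 0.42 and 0.22 for numbers 1, 2 and 3. The shared numbers of the labels were then taken to pair samples. Control 3 with irradiated 2 gave 0.33 and control 2 with irradiated 3 gave 0.17, while a number 1 with another number gave -0.48 to -0.25. These values set number 1 apart but do not tell which samples numbered 2 and 3 belong together. The labels do not say what a number stands for. The members, the 3 genes nearest to each and the 2 genes of each list with the smallest p were named by rule. Nr4a1, Sema3c, Mef2d, Hdac4, Hdac7, Hdac9, Cux2 and Slc17a7 were named outside this rule, after their values were seen. Members, lists and tests were chosen with earlier results of these data known. The number of arrays limits the precision. Position on the slide was not tested.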

Additional observations from a re-analysis of the deposited data

How the results depend on the processing

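With 3 arrays a group, no difference of a member passed adjustment in limma under any alternative run. Over all genes, 0 passed; quantile normalisation and the deposited log2 table each gave 2 genes and 4 probes, none of them a member, and leaving out 1 array gave 0. The count at an unadjusted p under 0.05 was 2394 genes, 4572 with normexp, 3791 with no filter, 1063 without both arrays numbered 1, and from 738 to 4534 when 1 array was left out. Genes called by number were 162, then 971 with normexp and quantile normalisation, 0 with no filter and 351 with detection on all 6 arrays. With the replicate block, 0 genes and 0 probes passed, and no call changed.

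Signs turned as follows. Bcl11a was -0.13 and Neurod1 -0.16 without both arrays numbered 1, Mef2c was 0.73 as the mean of its probes, and Neurod6 was 0.056 with quantile normalisation, with the deposited table and with the replicate block and quantile normalisation together, and 0.072 with normexp and quantile. When 1 array was left out, Bcl11a ranged from -0.24 to 0.46, Neurod1 from -0.52 to 0.60, Neurod2 from -0.53 to 0.14, Neurod6 from -0.44 to 0.24, and the Bcl11a probes A_55_P1988872 and A_55_P2485639 from -0.53 to 0.036 and from -0.040 to 1.096. The number test passed adjustment for Neurod2 (adjusted p = 0.031, limma) and Neurod6 (0.039) with normexp and quantile. The causes were not tested. Alternatives for single probes and the contrast of probes were added after seeing the data.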
